A study of Homo sapiens with 6 samples.

Results

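Iron uptake, storage and export were followed through 10 genes, chosen by name for their roles in iron handling and matched to the count table by Ensembl identifier. They are *TFRC*, *SLC11A2* and *STEAP3* (uptake), *FTH1*, *FTL* and *NCOA4* (storage and release from storage), *SLC40A1* (export), *IREB2* and *FBXL5* (sensing) and *SLC25A37* (import into mitochondria). All 10 were found among the 60656 genes of the table, and all 10 had enough counts to be tested. RNA came from parental ZR-75-1 cells, an oestrogen receptor (ER)-positive human breast cancer line that carries no *RB1* edit in these samples. The cells were grown in RPMI-1640 with fetal bovine serum, and 3 libraries were made after 4 days with DMSO, the solvent control, and 3 after 4 days with 500 nM abemaciclib, an inhibitor of the cell cycle kinases CDK4 and CDK6. Cells with *RB1* knocked out were not analysed here. The comparison asked how the transcripts of each gene differed between abemaciclib and DMSO.

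Cells take up iron mainly as transferrin, which binds the transferrin receptor and is carried into endosomes, where the iron is reduced and moved into the cytosol. Iron that is not used is stored inside ferritin, a shell built of heavy and light chains, and is released when ferritin is delivered to lysosomes. Ferroportin is the only known exporter of iron from mammalian cells. A pair of RNA-binding iron regulatory proteins match these steps to supply: when iron is scarce they bind hairpins called iron-responsive elements, which blocks translation when the hairpin lies in the 5′ untranslated region (UTR) and protects the transcript from decay when it lies in the 3′ UTR of the transferrin receptor. Dividing cells need iron for ribonucleotide reductase and for the iron–sulfur enzymes of DNA replication, and breast cancer cells are known to express much transferrin receptor and little ferroportin.

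The libraries held 3317860 to 4013156 counts, and a gene without any count in one of them may still have reached 0.740 to 0.909 CPM (counts scaled to library size with TMM factors), a bound from counting error alone. The libraries were made with a 3′ mRNA kit that reads the end of each transcript, so counts depend little on transcript length. Levels of different genes were compared as CPM without a length correction. Differences between genes in how well their ends are read or mapped were not corrected either. *MKI67*, a marker of dividing cells, had 494.0 to 556.7 CPM with DMSO and 3.21 to 7.57 CPM with abemaciclib. All 6 luminal markers examined were present in every library (*KRT19* at 3131 ± 236 CPM with DMSO, SD, n = 3), while 8 of the 12 basal, fibroblast, leukocyte and erythroid markers, among them *KRT5* and *PTPRC*, had 0 counts in all libraries. The other 4 were the fibroblast marker *COL1A1*, at 10.1 to 15.8 CPM with similar ranges in both groups, the leukocyte marker *CD68*, with 1 count in all, and the erythroid markers *HBB*, with 2 counts in 1 library, and *HBA1*, with 1 to 11 counts per library. Abemaciclib replicate 3 stood apart from the other abemaciclib libraries: its counts differed from theirs by a chi-square per gene of 6.90 and 7.29, against 2.84 to 4.20 for the other pairs of a group, and 18.3% of its counts came from the mitochondrial genome, against 15.6% to 16.6% in the other libraries. Because RNA was extracted from whole cultures, fewer cells of a kind and less RNA per cell cannot be told apart.

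Iron-responsive elements were looked for in the GENCODE transcripts of the 10 genes on GRCh38, as an unpaired C, a stem of 5 bases and the loop CAGTGN, with at least 4 of the 5 stem positions paired. A total of 6 of the 10 genes held one. They are printed here because iron is known to act through such hairpins on the transcripts of ferritin, ferroportin, transferrin receptor 1 and DMT1, and the match in *IREB2* is shown because the same search found it. Each line gives 30 bases, 5′ to 3′ on the strand of the gene, with the loop in capitals.
FTH1: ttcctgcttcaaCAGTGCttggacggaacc
FTL: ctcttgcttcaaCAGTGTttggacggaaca
SLC40A1: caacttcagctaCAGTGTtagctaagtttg
TFRC (first): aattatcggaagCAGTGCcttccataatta
TFRC (second): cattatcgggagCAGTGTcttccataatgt
TFRC (next): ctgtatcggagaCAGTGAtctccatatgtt
TFRC (last): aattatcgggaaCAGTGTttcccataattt
SLC11A2: agccatcagagcCAGTGTgtttctatggtt
IREB2: catttgctttcaCAGTGAtgagtgagagga

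The first 3 lie in the 5′ UTR, at chr11:61967573-61967602 on the minus strand for *FTH1*, chr19:48965335-48965364 on the plus strand for *FTL* and chr2:189580660-189580689 on the minus strand for *SLC40A1*. In each, all 5 stem positions pair. The element is in 7 of 8 protein-coding transcripts of *FTH1*, 1 of 1 of *FTL* and 1 of 5 of *SLC40A1*. The *FTH1* and *FTL* windows share 26 of 30 bases, while *SLC40A1* shares 13 with *FTH1* and 14 with *FTL*. An element of this form is rare in 5′ UTRs: 0.538% of 19701 canonical protein-coding transcripts hold one. The 4 elements found in *TFRC* lie in its 3′ UTR on the minus strand of chromosome 3, between 196050462 and 196051007. They are in 10 of its 11 protein-coding transcripts and share 19 to 25 of 30 bases with each other. The search would miss elements of another form, so 4 need not be their full number. The *SLC11A2* element (chr12:50988268-50988297, minus strand) is in the 3′ UTR of 4 of its 17 protein-coding transcripts, which counts per gene do not separate. The match in the 3′ UTR of *IREB2* (chr15:78500969-78500998, plus strand), in 1 of its 4 protein-coding transcripts, pairs at 4 of 5 positions, as does that of *SLC11A2*. Among canonical transcripts, 4.22% hold such a match in the 3′ UTR, and the search does not show that a match is bound. The search found no match in *STEAP3*, *NCOA4*, *FBXL5* or *SLC25A37*.

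With abemaciclib, the transcripts of the ferritin light chain and of ferroportin rose, 1.5-fold and 1.44-fold, and the transcripts of the other 8 genes did not pass the test. The quasi-likelihood test of edgeR called 2 of the 10 higher and 0 lower (adjusted P under 0.05). It called 12.5% of all 10863 genes tested higher and 13.3% lower, and 2 of 10 is to be read against these shares. At an unadjusted P under 0.05, 3 were higher and 1 was lower, where 17.9% and 18.3% of all genes tested were. DESeq2 called 2 of the 10 higher and 0 lower, where it called 9.13% and 9.95% of the 11715 genes to which it gave an adjusted P. The abemaciclib libraries lay all above or all below the DMSO libraries for 4 of the 10 genes, against 39.1% of all genes tested. The median log2 fold change of the 10 genes was 0.02, against 0.00 over all genes tested (−0.002).

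**Figure D1:**
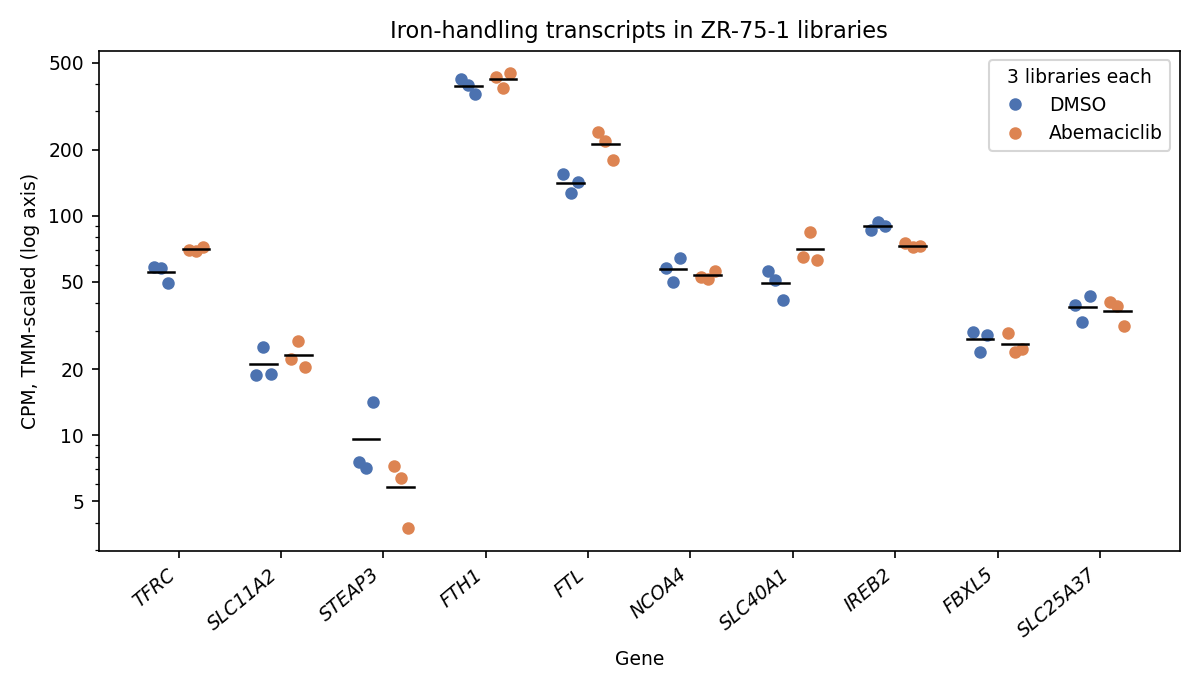
Level of each of the 10 transcripts in every library, in CPM on a log axis, with DMSO in blue, abemaciclib in orange and the group mean as a bar. The 3 abemaciclib libraries lie above the 3 DMSO libraries for *FTL*, *SLC40A1* and *TFRC* and below them for *IREB2*, and the 2 groups overlap for the other genes.

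Among the genes of uptake, *TFRC* encodes transferrin receptor 1, which brings transferrin-bound iron into the cell. It lies on chromosome 3 from 196012511 to 196082153. Its level was 58.3, 58.2 and 49.7 CPM in the DMSO libraries and 69.9, 69.6 and 71.9 CPM in the abemaciclib libraries. The groups did not overlap, with abemaciclib higher, and the abemaciclib libraries differed among themselves by less than the DMSO libraries did. The log2 fold change was 0.35 (standard error 0.14, 95% confidence interval 0.07 to 0.63), and with an adjusted P of 0.0627 from edgeR it did not pass the threshold. It did not pass under any of the 13 alternatives either (adjusted P from 0.0601 to 0.213). The alternative that added pseudogene counts to the ferritin genes did not touch the counts of *TFRC*. *MKI67*, in the same libraries, fell by 6.71 on the log2 scale.

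*SLC11A2* encodes DMT1, the carrier that moves reduced iron out of the endosome. Its level was 18.9, 25.3 and 19.1 CPM with DMSO and 22.4, 26.9 and 20.5 CPM with abemaciclib. The groups overlapped, and the log2 fold change was 0.15 (95% confidence interval −0.30 to 0.59). *STEAP3* encodes the endosomal reductase that prepares iron for DMT1, and it had the lowest level of the 10 genes. Its level was 7.54, 7.13 and 14.2 CPM with DMSO, where replicate 3 stood apart, and 7.26, 6.42 and 3.78 CPM with abemaciclib. The log2 fold change of −0.73 had a wide interval (−1.52 to 0.07, adjusted P = 0.182 from edgeR), and without DMSO replicate 3 it was −0.34.

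Of the 2 ferritin chains, the transcript of the light chain passed the test and that of the heavy chain did not. *FTL*, on chromosome 19 from 48965309 to 48966879, encodes the light chain, which helps to form the iron core. Its level was 156.0, 127.4 and 143.0 CPM with DMSO and 241.1, 219.1 and 179.4 CPM with abemaciclib. The groups did not overlap, and abemaciclib replicate 3 was the lowest of its group. *FTL* rose 1.5-fold (log2 fold change 0.58, standard error 0.12, 95% confidence interval 0.35 to 0.82, adjusted P = 0.000351 from edgeR), in 3 of 3 abemaciclib libraries against the DMSO mean. The call held under all 13 alternatives, with log2 fold changes from 0.49 to 0.70, the highest without abemaciclib replicate 3. Among the genes tested, ordered by mean level, *FTL* ranked 1189 with DMSO and 737 with abemaciclib.

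*FTH1*, on chromosome 11 from 61959718 to 61967634, encodes the heavy chain, which oxidizes iron as it enters the shell. Its level was 421.1, 393.6 and 360.7 CPM with DMSO and 429.6, 384.6 and 446.6 CPM with abemaciclib. The groups overlapped, and the log2 fold change was 0.10 (standard error 0.10, 95% confidence interval −0.10 to 0.30, adjusted P = 0.495 from edgeR). A rise of the size estimated for *FTL* lies above this interval. Both chains have processed pseudogenes that can share reads: 25 annotated for *FTH1* held 95 counts over the 6 libraries against 8600 for the gene, and 16 for *FTL* held 24 against 3788. Adding these counts to the parent genes changed no call. How reads that match a gene and a pseudogene equally well were counted is not given. The addition therefore does not show what such reads would change. The 3′ end of *FTH1* also overlaps *BEST1* on the opposite strand, which had 0 counts.

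The balance of the chains can be read within each library without any scaling. *FTH1* made up 73.0%, 75.5% and 71.6% of the ferritin counts with DMSO and 64.1%, 63.7% and 71.3% with abemaciclib. The ratio of *FTH1* to *FTL* counts was thus 2.7, 3.09 and 2.52 with DMSO and 1.78, 1.76 and 2.49 with abemaciclib. Every abemaciclib library was below every DMSO library, but abemaciclib replicate 3 was close to DMSO replicate 3. On the log2 scale the ratio was 1.47 ± 0.15 with DMSO and 0.99 ± 0.29 with abemaciclib (SD, n = 3 in each group), a difference of −0.48 (two-sided P = 0.1 by exact permutation, which can go no lower with 3 libraries against 3). Without abemaciclib replicate 3 the difference was −0.64. With the pseudogene counts added to both genes the difference was −0.47 (two-sided P = 0.2 by exact permutation), so the groups were then not fully apart.

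*NCOA4* encodes the receptor that carries ferritin to lysosomes, where its iron is set free. Its level was 58.0, 49.9 and 64.5 CPM with DMSO and 52.9, 51.8 and 55.9 CPM with abemaciclib. The abemaciclib libraries fell inside the range of the DMSO libraries, and the log2 fold change was −0.10 (95% confidence interval −0.40 to 0.20). A change of 1.5-fold in either direction, the size of the rise of *FTL*, lies outside this interval.

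**Figure D2:**
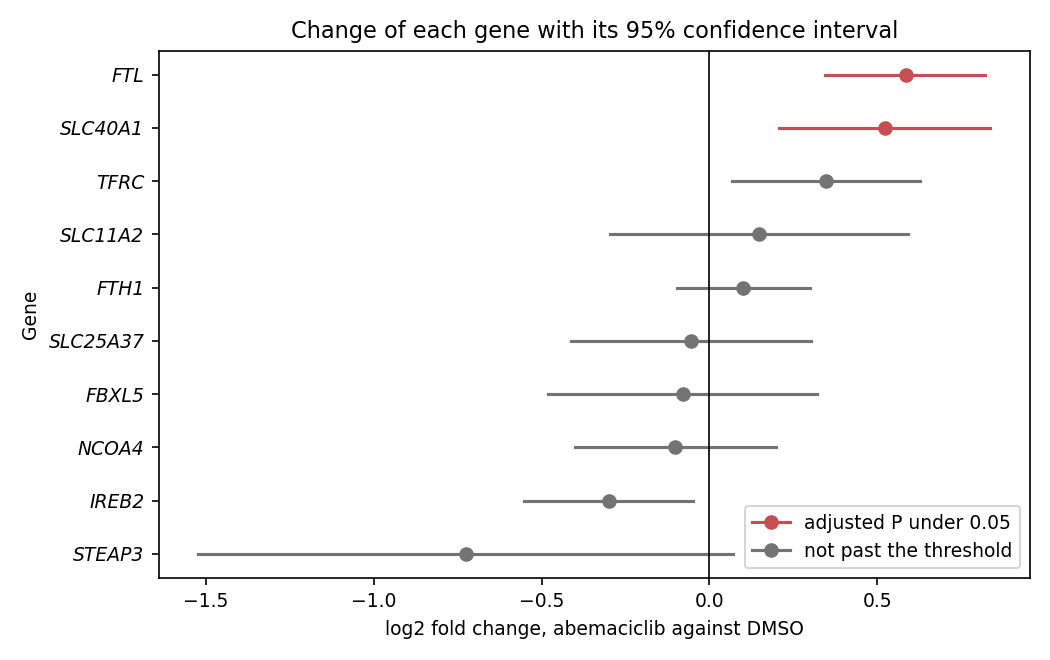
log2 fold change of each of the 10 genes, abemaciclib against DMSO, with its 95% confidence interval as a line. The intervals of *FTL* (0.35 to 0.82) and *SLC40A1* (0.21 to 0.84), in red, belong to genes past an adjusted P of 0.05, and that of *STEAP3* (−1.52 to 0.07) is the widest.

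Export rests on *SLC40A1*, which encodes ferroportin and lies on chromosome 2 from 189560590 to 189583758. Its level was 56.0, 50.8 and 41.5 CPM with DMSO and 65.1, 84.4 and 63.2 CPM with abemaciclib. Abemaciclib replicate 2 was the highest and DMSO replicate 3 the lowest, and the groups did not overlap. *SLC40A1* rose 1.44-fold (log2 fold change 0.52, standard error 0.15, 95% confidence interval 0.21 to 0.84, adjusted P = 0.0121 from edgeR), with 3 of 3 abemaciclib libraries above the DMSO mean. The call rested on these 2 libraries: without DMSO replicate 3 the log2 fold change was 0.41 (adjusted P = 0.0812), and without abemaciclib replicate 2 it was 0.38 (adjusted P = 0.123). With DESeq2 it was 0.53 (adjusted P = 0.0292).

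The 2 genes of iron sensing act in sequence. *IREB2*, on chromosome 15 from 78437431 to 78501453, encodes iron regulatory protein 2, which binds iron-responsive elements when iron is low. Its level was 86.7, 93.6 and 90.3 CPM with DMSO and 75.0, 72.04 and 72.7 CPM with abemaciclib. Every abemaciclib library was below every DMSO library, with little spread in either group. The log2 fold change was −0.30 (standard error 0.12, 95% confidence interval −0.55 to −0.05). With an adjusted P of 0.0727 from edgeR it did not pass the threshold, nor did it under any of the 13 alternatives (adjusted P from 0.0616 to 0.201). The alternative that added pseudogene counts to the ferritin genes did not touch the counts of *IREB2*. *FBXL5* encodes the iron-binding ubiquitin ligase subunit that marks this protein for breakdown when iron is plentiful. It had 29.6, 24.1 and 28.8 CPM with DMSO and 29.4, 23.9 and 24.9 CPM with abemaciclib. The groups overlapped, and the log2 fold change was −0.08 (95% confidence interval −0.48 to 0.32).

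*SLC25A37* encodes mitoferrin-1, a carrier of iron across the inner mitochondrial membrane. It had 39.5, 32.7 and 43.3 CPM with DMSO and 40.5, 39.0 and 31.6 CPM with abemaciclib. These ranges were almost the same, and the log2 fold change was −0.06 (95% confidence interval −0.41 to 0.30), with a sign that turned when DMSO replicate 3 (0.04) or abemaciclib replicate 3 (0.05) was left out.

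Levels of the 10 transcripts spanned a wide range within the cells. With DMSO the order was *FTH1* (391.8 CPM), *FTL* (142.1), *IREB2* (90.2), *NCOA4* (57.5), *TFRC* (55.4), *SLC40A1* (49.4), *SLC25A37* (38.5), *FBXL5* (27.5), *SLC11A2* (21.1) and *STEAP3* (9.64), each a mean of 3 libraries. The ranges of neighbours overlapped from *NCOA4* through *TFRC* and *SLC40A1* to *SLC25A37* and between *FBXL5* and *SLC11A2*, and were apart for the other neighbours. With abemaciclib, *SLC40A1* (70.9 CPM) and *TFRC* (70.4 CPM) stood above *NCOA4* (53.6 CPM). *IREB2* (73.3 CPM) and *SLC40A1* overlapped in range, as did *SLC40A1* and *TFRC*. Transcripts of the exporter and of the receptor thus overlapped in range in both groups.

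The ratio of uptake to storage transcripts moved little. Counts of *FTH1* and *FTL* together were 9.90, 8.95 and 10.1 times those of *TFRC* with DMSO and 9.60, 8.68 and 8.71 times with abemaciclib. The log2 ratio of *TFRC* to ferritin counts was −3.27 ± 0.10 with DMSO and −3.17 ± 0.08 with abemaciclib (SD, n = 3 in each group), and the groups overlapped (difference 0.10, exact permutation test, two-sided, P = 0.2, where 0.1 is the smallest possible).

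**Figure D3:**
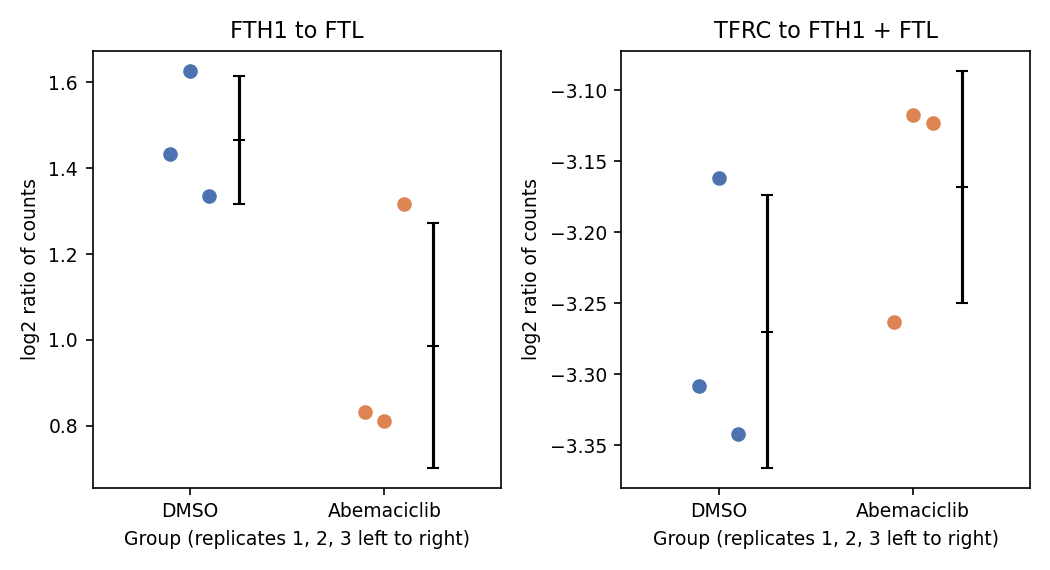
log2 ratio of counts within each library, *FTH1* to *FTL* on the left and *TFRC* to the sum of both on the right, with the mean and SD of the 3 libraries of a group in black and axes that do not start at 0. The ratio of the chains was lower in all 3 abemaciclib libraries, from 0.81 to 1.32 against 1.34 to 1.63 with DMSO, and the ratio of receptor to ferritin overlapped between the groups.

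Set beside the elements printed above, the 3 genes with a 5′ UTR element had log2 fold changes of 0.58 (*FTL*), 0.52 (*SLC40A1*) and 0.10 (*FTH1*). The genes with a 3′ UTR match had 0.35 (*TFRC*), 0.15 (*SLC11A2*) and −0.30 (*IREB2*). *FTL* and *FTH1*, whose windows are the most alike of any pair from different genes, had the largest and the smallest value of the first group. Counts per gene do not separate transcripts with an element from those without, as for *SLC40A1*, where 1 of 5 protein-coding transcripts holds it. These are levels of transcript, and neither protein nor iron was measured.

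The promoters were examined in RefSeq windows on GRCh38.p14, from 250 bases before to 50 after each start, of which 13 belong to 8 of the genes. *FTH1* and *SLC25A37* had no window. The letters ACGTG, the core of the hypoxia response element, were found on either strand in windows of *FTL*, *TFRC* and *FBXL5* and in 21.4% of all 35116 windows. The E-box CACGTG, which contains ACGTG and is read by MYC and by TFEB, was found in *FBXL5* and in 7.26% of all windows. The core of the antioxidant response element, TGACNNNGC, was found in *FBXL5* and *NCOA4* and in 13.3% of all windows, and the E2F letters TTTCCCGC in 0 of the 13 windows and in 1.63% of all. Of the 2 genes that rose, *FTL* had ACGTG and *SLC40A1* had none of the 4 motifs. Whether a motif bears on the change of a transcript was not tested.

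Beyond the 10 genes, 82 others of iron and haem metabolism were listed by role, and 53 passed the filter on low counts. Of these, 6 rose and 5 fell with abemaciclib, to be read against the shares over all genes given above, and their median log2 fold change was 0.09. With DESeq2 3 were higher and 5 lower. Of the 82, 14 had 0 counts in all 6 libraries, among them the hepcidin gene *HAMP* and the ferroxidase gene *CP*, which allows up to the CPM limit given above in each library.

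Of the other genes of uptake and reduction, 4 of 14 were tested, 1 rose and none fell with edgeR (0 also without adjustment). The gene that rose was *STEAP2*, a relative of *STEAP3* that reduces iron and copper. Its level was 11.02, 10.4 and 10.0 CPM with DMSO and 22.7, 22.7 and 24.6 CPM with abemaciclib, tight within each group and far apart between them. The rise was 1.15 on the log2 scale (standard error 0.24, adjusted P = 0.000534 from edgeR) and was the largest rise among the 53 genes. With abemaciclib the *STEAP2* transcript was at 23.3 CPM against 5.82 CPM for *STEAP3*, whereas with DMSO they were at 10.5 and 9.64 CPM. The change of *STEAP3* was not called (adjusted P = 0.182 from edgeR), and its DMSO mean was raised by replicate 3 (14.2 CPM).

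Among chaperones and genes of ferritin turnover, 5 of 6 were tested, and 0 were higher (2 at an unadjusted P under 0.05) and 2 lower. Both that fell deliver iron to ferritin: *PCBP1* had 172.6 to 201.3 CPM with DMSO and 142.8 to 154.8 CPM with abemaciclib (log2 fold change −0.36, adjusted P = 0.0121 from edgeR), and *PCBP2* had 424.7 to 482.7 and 358.2 to 370.2 CPM (log2 fold change −0.32, adjusted P = 0.0116). All 3 abemaciclib libraries were below all 3 DMSO libraries for each. The call of *PCBP1* was lost without DMSO replicate 1 (−0.32) or DMSO replicate 2 (−0.34), and that of *PCBP2* without DMSO replicate 2 (−0.27). Each overlaps a gene on the opposite strand at its 3′ end (*PCBP1-AS1* with 77 counts over the 6 libraries and *MAP3K12* with 79), few beside their own 3558 and 8644. Of the export and hepcidin list only *NEO1*, a co-receptor in hepcidin signalling, was tested of 9 genes (log2 fold change 0.28, adjusted P = 0.0764).

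*ACO1* encodes iron regulatory protein 1, the other member of the pair of iron regulatory proteins. It had 26.1, 16.6 and 23.9 CPM with DMSO and 26.9, 46.9 and 31.9 CPM with abemaciclib (log2 fold change 0.67, adjusted P = 0.0236). Abemaciclib replicate 2 stood highest, and the call was lost without it (0.41), without DMSO replicate 2 (0.50) and with DESeq2 (adjusted P = 0.0659).

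Mitochondrial import and iron–sulfur cluster assembly had 16 of 17 genes tested, with 1 higher, 1 lower and a median log2 fold change of 0.05. *FDXR*, the reductase that feeds electrons to ferredoxins and a known p53 target, had 60.3 to 74.9 CPM with DMSO and 27.8 to 39.3 CPM with abemaciclib. It fell to 0.481 of its level (log2 fold change −1.06, standard error 0.16, adjusted P = 1.1e-05 from edgeR), and the call held under all 12 alternatives. *NFS1*, the cysteine desulfurase that supplies sulfur, rose by 0.51 on the log2 scale at an adjusted P of 0.0474 from edgeR, and passed the threshold under only 3 of 12 alternatives (without DMSO replicate 1, 2 or 3 it was lost at 0.53, 0.56 and 0.45, and without abemaciclib replicate 1 at 0.35). *HSPA9*, the mitochondrial chaperone, had the highest level of the list and did not pass (log2 fold change 0.24).

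Cytosolic cluster assembly had 8 of 9 genes tested, with 1 higher and 1 lower. *CIAO1*, of the complex that hands clusters to target proteins, had 45.2 to 49.7 CPM with DMSO and 63.0 to 85.4 CPM with abemaciclib (log2 fold change 0.66, adjusted P = 0.00106 from edgeR). *NUBP1*, a scaffold on which clusters are built, had 86.4 to 97.7 CPM with DMSO and 53.6, 66.1 and 32.4 CPM with abemaciclib (log2 fold change −0.86, adjusted P = 0.000321). Its 3′ end overlaps *TVP23A* on the opposite strand, which had 0 counts. The partner of *NUBP1*, *NUBP2*, did not pass (log2 fold change −0.12). In this list 6 of the 8 genes tested were not called. The 1 higher and 1 lower are to be read against the shares over all genes given above.

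Haem synthesis had 9 of 10 genes tested, and 0 were higher (1 at an unadjusted P under 0.05) and 0 lower (0 unadjusted) with edgeR. *FECH*, which inserts iron to form haem, had the highest level of the list. It had 41.5 ± 11.01 CPM with DMSO and 56.5 ± 6.09 CPM with abemaciclib (SD, n = 3 in each group). Its log2 fold change was 0.44, with an adjusted P of 0.0617 from edgeR. Haem breakdown and transport had 7 of 11 tested, with 1 higher and 1 lower. *FLVCR1*, known as a haem exporter, had 19.1 to 27.3 CPM with DMSO and 31.1 to 40.2 CPM with abemaciclib (log2 fold change 0.60, adjusted P = 0.023 from edgeR), a call lost without DMSO replicate 1 (0.61), DMSO replicate 3 (0.47) or abemaciclib replicate 2 (0.50) and with DESeq2 (adjusted P = 0.0597). *BLVRA*, a biliverdin reductase, had 82.1 to 87.5 CPM with DMSO and 56.7 to 64.3 CPM with abemaciclib, a fall that held under all 12 alternatives (log2 fold change −0.51, adjusted P = 0.00389). *BLVRB*, the other reductase, was the most abundant of the list at 501.3 CPM with DMSO and 540.4 CPM with abemaciclib and did not pass (adjusted P = 0.416 from edgeR).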

How the data were processed

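RNA was measured in 6 libraries, 3 with DMSO and 3 with abemaciclib, grouped by the treatment in their labels. The study describes its RNA-seq replicates as biologically independent. The authors trimmed the single-end 3′ mRNA reads (BBDuk), used STAR 2.7.5b for alignment to hg38 and counted reads per gene with featureCounts 2.0.1 (versions per the submitters' processing notes). The deposited values are these raw counts, without normalization or filter. The strand setting of the counting is not given in the sources used here.

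Symbols and places were matched by identifier to GENCODE release 44 (60401 of the genes), a later release on the same assembly. The test was edgeR 4.0.16 under R 4.3.3 (TMM factors, genes kept by filterByExpr, glmQLFit and glmQLFTest, treatment as the sole term), with Benjamini–Hochberg adjustment over the 10863 genes tested and a threshold of 0.05. The standard error is the size of the log2 fold change divided by the square root of F, and confidence intervals are at 95%. Ratios of counts within a library were compared by exact permutation. Alternatives included DESeq2 1.42.0, the tool of the study. No 2 libraries of a group agreed within sampling noise.

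The 10 genes and the role lists were chosen with earlier results of these data known. Named from the role lists were up to 3 genes past the threshold with the largest change, and the most abundant gene of each. *HAMP* and *CP* were named after their values were seen. A result that this rule selects is not reported here.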

Additional observations from a re-analysis of the deposited data

How the results depend on the processing

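Of 90 counts and ratios under an alternative, 84 were kept, where a count had to stay within 1.5 times the value reported and a ratio only had to keep its direction. Of 322 values of single genes, 293 kept their direction and side of the threshold. For the 10 iron genes, the 2 higher became 0 when called genes also had to change by 1 or more on the log2 scale and 1 to 2 with 1 library left out (1 without DMSO replicate 3 or abemaciclib replicate 2, which ends the call of *SLC40A1*), and 0 were lower under every alternative run. Over all genes, that limit of 1 left 322 higher and 645 lower, by construction, DESeq2 gave 1069 and 1166, and leaving out 1 library gave 981 to 1412 and 1132 to 1529. For the other iron genes, the 6 higher became 3 with DESeq2 and 4 to 8 with 1 library left out, and the 5 lower became 4 to 6. The log2 fold change of *SLC25A37* was −0.162 to 0.048 and that of *NUBP2* −0.27 to 0.01 with 1 library left out, both without a call. The difference in the ratio of *FTH1* to *FTL* was −0.64 to −0.39 and that of *TFRC* to ferritin 0.07 to 0.16.

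Replicate numbers did not pair the libraries: deviations of same-numbered libraries from their group means correlated at −0.14, 0.004 and −0.21 over 6145 genes. With the replicate block 1139 genes were higher and 1280 lower, 2 and 0 of the 10 iron genes, and 4 and 5 of the others, with *ACO1* (adjusted P = 0.0562 from edgeR) and *NFS1* (adjusted P = 0.0694) no longer called. *STEAP3*, with 14 to 47 counts per library, had the fewest counts and the widest interval of the 10 genes.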
